A study of Mus musculus with 18 samples.

Results

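The handling of iron and zinc by dendritic cells (DCs) was followed through 10 genes, chosen by symbol. These are the metallothioneins *Mt1* and *Mt2*, the ferritin chains *Fth1* and *Ftl1*, the iron exporter *Slc40a1* (ferroportin), the transferrin receptor *Tfrc*, the metal transporters *Slc11a1*, *Slc11a2* and *Slc39a14*, and the zinc exporter *Slc30a1*. All 10 were found among the 62197 genes of the deposited table, of which 25177 carry a symbol. All 10 were also among the 17875 genes tested, which reached a normalized count of 10 or more in 3 or more libraries. The lowest value of any of the 10 genes in any library was 283.0 normalized counts, for *Slc30a1*.

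As background, most cells take up iron bound to transferrin through the transferrin receptor, keep the surplus inside ferritin, a shell built of heavy and light chains, and release it through ferroportin, which the hormone hepcidin removes from the cell surface. Iron regulatory proteins bind short hairpins, the iron-responsive elements, in some of these mRNAs when iron is scarce: in a 5′ untranslated region (UTR) this blocks translation, and in the 3′ UTR of *Tfrc* it protects the mRNA from decay. Metallothioneins are small cysteine-rich proteins that bind zinc and copper, and their genes, like *Slc30a1*, are known targets of the zinc-sensing factor MTF1, while myeloid cells are known to move iron and zinc away from microbes when they are activated.

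Poly(A) RNA of mouse bone marrow-derived DCs was sequenced in 18 stranded libraries, 3 for each of 6 groups, to ask how confinement and the phospholipase cPLA_2_ shape the transcriptome. Marrow was cultured for 10 days with granulocyte-macrophage colony stimulating factor (GM-CSF), taken from the supernatant of transfected J558 cells. cPLA_2_ WT and cPLA_2_ KO DCs were left nonconfined, or confined at 3 µm height for 4 h before lysis. Others were given 100 ng/ml lipopolysaccharide (LPS) for 30 min by the labels (25 min by the study's methods), washed and left until the next day without confinement. For nonconfined DCs the labels give the days of culture and no further hours before lysis. Libraries held between 33027230 and 61300021 reads in genes (median 40950397), and LPS libraries had the highest totals of normalized counts.

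In cPLA_2_ KO DCs the gene *Pla2g4a* is floxed and cut by Cre recombinase under the *Itgax* promoter, so cells of the culture that do not express *Itgax* keep the gene. All groups share the C57BL/6 background and the GM-CSF culture, which also yields granulocytes and macrophages. The study used differences in adhesion to set DCs apart from both. The methods give 6 to 8 weeks as the age of the marrow donors, and 8 to 14 weeks and either sex for mice in general. The confined groups may differ from the nonconfined groups in the hours spent after the culture as well as in height. No library is labelled as DCs kept for the same hours without confinement. The LPS groups differ from the confined groups in washing and in hours after the culture too, and may differ in the same way from the nonconfined groups. No library is labelled as DCs washed and left as long without LPS. Each library number stands for a replicate within its group, and the labels do not say that numbers pair across groups.

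The identity of the libraries was checked with *Ddx3y*, *Xist* and *Pla2g4a*. *Ddx3y*, a Y chromosome gene, stood at no more than 3.05 normalized counts in the 6 nonconfined and confined cPLA_2_ WT libraries and at no less than 874.4 in the 6 cPLA_2_ KO libraries. *Xist*, which female cells transcribe from the inactive X chromosome, ran from 22734 to 33681 in these cPLA_2_ WT and from 12153 to 24835 in these cPLA_2_ KO libraries, so RNA of both sexes was present in the cPLA_2_ KO libraries. Genotype and the presence of male cells cannot be told apart in these groups. In the LPS libraries *Ddx3y* was 1271, 0 and 662 in those labelled cPLA_2_ WT and 2.12, 1476 and 783 in those labelled cPLA_2_ KO, and *Xist* was 26298, 27791 and 27224 and 30960.2, 16450.2 and 21654. *Pla2g4a* was 697, 686 and 770.4 in nonconfined cPLA_2_ WT and 548, 542 and 533 in nonconfined cPLA_2_ KO libraries, and 1369, 1430.3 and 1321 and 923, 871 and 919.5 in the confined ones, lower in every cPLA_2_ KO library of a state than in any cPLA_2_ WT library of it and at no less than 532.8. In LPS libraries it was 1005, 969 and 967 under the cPLA_2_ WT label and 1065, 1032 and 1028 under the cPLA_2_ KO label, and thus not lower under the latter. Over the 12203 genes with 20 or more reads in every library, each LPS library labelled cPLA_2_ WT was closest to one labelled cPLA_2_ KO: replicate 1 to replicate 2, replicate 2 to replicate 1, and replicate 3 to replicate 3. From the other side cPLA_2_ KO replicates 1 and 3 were closest to the same partners, while cPLA_2_ KO replicate 2 was closer to cPLA_2_ KO replicate 3 than to cPLA_2_ WT replicate 1. Closeness was a median chi-square of reads, which grows with depth and was not adjusted for it. LPS libraries labelled cPLA_2_ WT were deeper (52116837 to 61300021 reads) than those labelled cPLA_2_ KO (39609637 to 45160523). cPLA_2_ WT replicate 1 stood at 4.52 from cPLA_2_ KO replicate 2 and at 5.01 from cPLA_2_ WT replicate 3. By *Ddx3y* and *Pla2g4a* the genotype labels of the LPS libraries go against the data. LPS values are given below by label, with the 6 libraries pooled for tests.

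The DC label was checked against its markers. All 12 DC markers listed were detected, *Cd74* was the most abundant in every library, and the summed level of the list averaged 520402 and 626579 normalized counts in nonconfined cPLA_2_ WT and cPLA_2_ KO DCs, and 478151 and 430369.8 in their confined counterparts. LPS libraries averaged 792636 and 793353 under the cPLA_2_ WT and the cPLA_2_ KO label. *Itgax*, which drives the Cre, averaged 6281, 5175, 4626, 4316, 7119.8 and 6787 normalized counts in the same order of groups. By gene and adjusted p from limma alone, 2 of the 12 markers passed as higher and 8 as lower with confinement in cPLA_2_ WT DCs (28.2% and 28.4% of all genes; median log2 fold change -0.29), and 0 and 12 in cPLA_2_ KO DCs (22.8% and 23.4% of all genes; median -0.68). In confined cPLA_2_ KO DCs against LPS 0 were higher and 12 lower (30.3% and 32.5% of all genes; median -1.16), and in confined cPLA_2_ WT DCs 0 and 11 (24.5% and 29.8%; median -0.63).

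With confinement, 8 of the 10 genes were called higher in cPLA_2_ WT DCs and 1, *Tfrc*, lower, where called means an adjusted p under 0.05 from limma and a change of at least 2-fold. Across all genes tested, 11.4% were called higher and 7.62% lower. All 10 genes passed the adjusted p alone, against 56.6% of all genes, and their median log2 fold change was 1.74 against -0.01 for all genes. In cPLA_2_ KO DCs confinement gave 6 calls higher and 1 lower, against 6.43% and 5.53% of all genes. Here too all 10 passed the adjusted p alone (46.3% of all genes), with a median of 1.37 against 0.01. *Mt1*, *Mt2*, *Fth1*, *Slc40a1*, *Slc11a1* and *Slc30a1* were called higher in both genotypes, *Slc11a2* and *Slc39a14* in cPLA_2_ WT DCs, and *Ftl1* rose by less than 2-fold in both.

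LPS, with both labels pooled against the 6 nonconfined libraries, gave 7 calls higher and 1 lower, against 15.6% and 13.4% of all genes. By adjusted p alone 9 of the 10 genes passed, against 71.5% of all genes, and the median log2 fold change of the 10 was 1.69 against 0.02. The gene that did not pass was *Slc40a1*. In the same test 11 of the 12 DC markers passed as higher and 0 as lower, and 0 of 9 eosinophil markers as higher and 8 as lower. Of 10 macrophage markers tested 4 passed as higher and 6 as lower, and of 12 neutrophil markers 4 and 7. All genes passed at 37.2% higher and 34.3% lower, and the part of these markers in the result was not tested. The comparisons of confinement and of LPS share the nonconfined libraries, so they are given side by side and not as separate support.

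**Figure D1:**
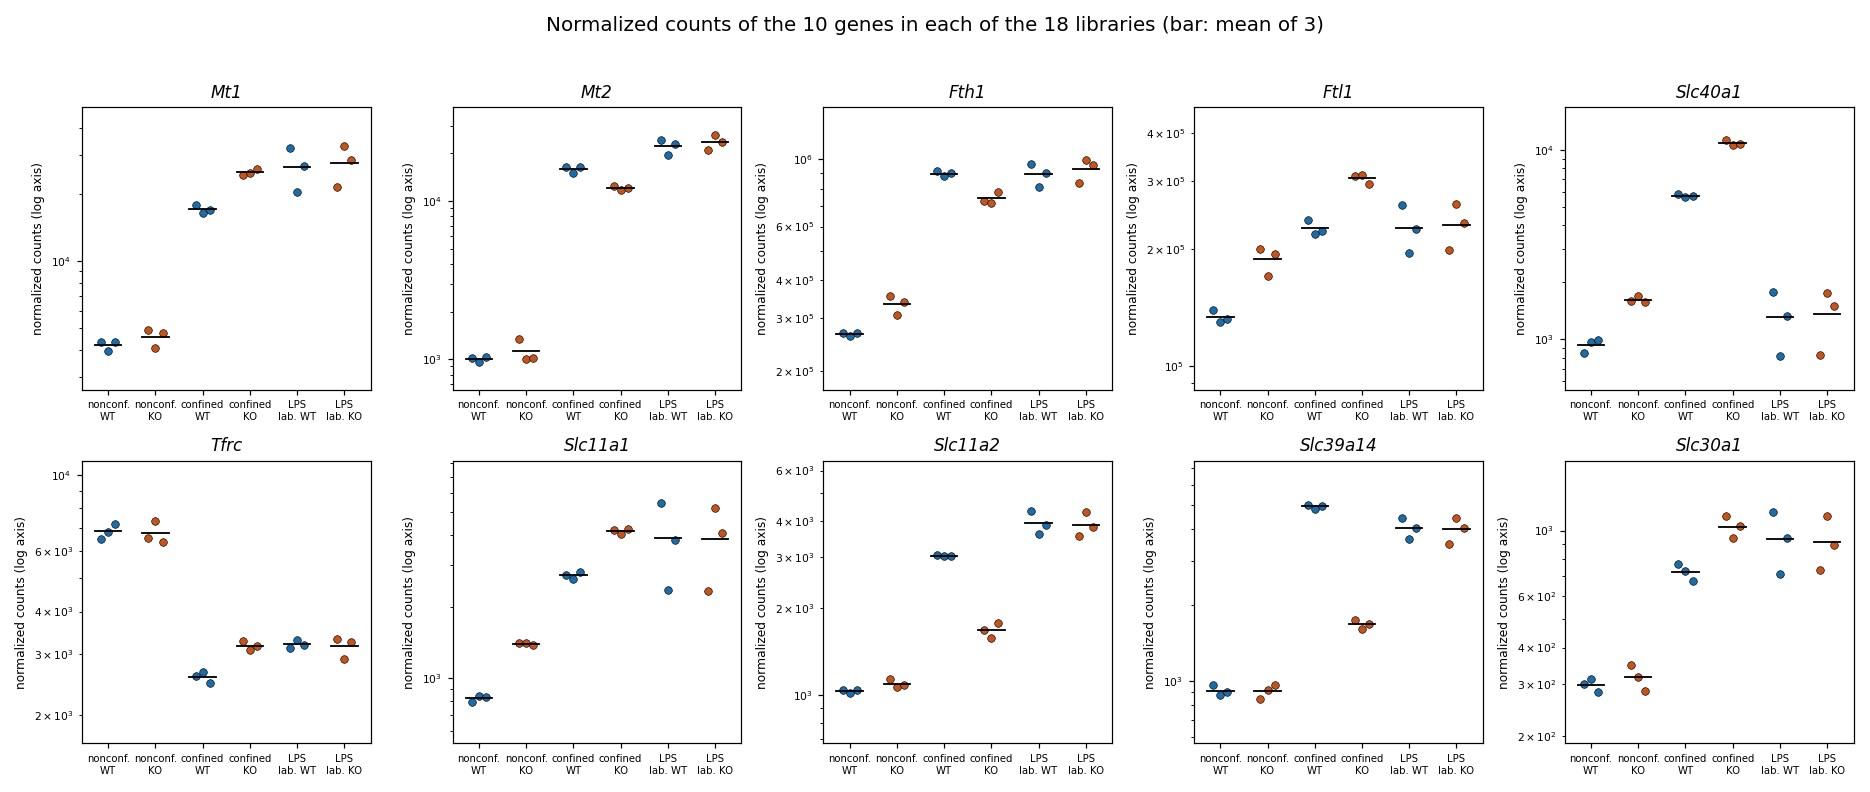
Normalized counts (log axis) of the 10 genes in each of the 18 libraries, by group, with a bar at the mean of 3. *Tfrc* was lower in all confined and LPS libraries than in any nonconfined library, and *Slc40a1* stood at 5656 normalized counts or more in the 6 confined libraries and at no more than 1772 in every other library.

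Levels per kilobase of the canonical transcript put the 10 genes in order. In nonconfined cPLA_2_ WT DCs *Fth1* averaged 284930.1 ± 4099 (SD, n = 3) normalized counts per kilobase and *Ftl1* 138015 ± 5109.6. Then came *Mt1* at 5509 ± 268, *Tfrc* at 1401 ± 70.9 and *Mt2* at 1342 ± 48.5, the last pair lying within their spread. The 4 iron transporters stood lower on this scale, *Slc11a2* at 341 ± 4.90, *Slc11a1* at 317 ± 8.65, *Slc40a1* at 269.8 ± 22.4 and *Slc39a14* at 176 ± 7.80. *Slc30a1* was lowest at 56.6 ± 2.92. In confined cPLA_2_ WT DCs the order became *Fth1* (966491 ± 17349.8), *Ftl1* (234026 ± 10729), *Mt1* (22521 ± 936) and *Mt2* (21297 ± 1058), the metallothioneins now lying side by side. *Slc40a1* followed at 1658 ± 27.1, and *Tfrc* had moved to next to last at 526 ± 19.6, above *Slc30a1* at 137 ± 9.15 normalized counts per kilobase.

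The metallothioneins were followed first. *Mt2* (GSMG0053830, chr8:94899246-94900195, plus strand, GRCm39) held 1021, 962 and 1028 normalized counts in the nonconfined cPLA_2_ WT libraries, 1343, 1008 and 1020.0 in nonconfined cPLA_2_ KO libraries, 16365, 15017 and 16408 in confined cPLA_2_ WT libraries and 12475, 11674 and 12123 in confined cPLA_2_ KO. LPS libraries held 24177, 19478 and 22922 under the cPLA_2_ WT label and 20894, 26273 and 23479.8 under the cPLA_2_ KO label. Nonconfined libraries of both genotypes overlapped, every confined cPLA_2_ WT library lay above every confined cPLA_2_ KO library, and all LPS libraries lay above both. *Mt2* rose with confinement in cPLA_2_ WT DCs (log2 fold change 3.99, SE 0.09, adjusted p = 6.93e-19) and also in cPLA_2_ KO DCs (log2 fold change 3.44, SE 0.09, adjusted p = 5.6e-17), and the rise was smaller in cPLA_2_ KO DCs (interaction -0.55, SE 0.13, adjusted p = 0.0038). With LPS it rose further (log2 fold change 4.43, SE 0.07, adjusted p = 4.55e-23).

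*Mt1* (GSMG0053831, chr8:94905717-94906953, plus strand) held 4317, 3963 and 4315 normalized counts in nonconfined cPLA_2_ WT libraries, 4922, 4053 and 4755 in nonconfined cPLA_2_ KO libraries, 17912, 16493 and 17077 in confined cPLA_2_ WT libraries and 24476, 24879.7 and 25989 in confined cPLA_2_ KO libraries. Under LPS it held 32481, 20596 and 26912 and 21541, 33038 and 28527 by label. Here the confined cPLA_2_ KO libraries lay above the confined cPLA_2_ WT libraries, the reverse of *Mt2*, and the LPS libraries spread around the confined cPLA_2_ KO level. Confinement raised *Mt1* in both genotypes (log2 fold change 2.03, SE 0.13, adjusted p = 1.55e-11 in cPLA_2_ WT; log2 fold change 2.46, SE 0.13, adjusted p = 1.96e-12 in cPLA_2_ KO). The interaction did not pass (0.43, SE 0.18, adjusted p = 0.0941), but passed with each library brought to the same total (0.62, adjusted p = 0.00818) and with the 4 groups fitted alone (adjusted p = 0.000688).

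As a ratio of normalized counts within libraries, *Mt1* over *Mt2* averaged 4.18 ± 0.0558 (SD, n = 3) in nonconfined cPLA_2_ WT and 4.12 ± 0.505 in nonconfined cPLA_2_ KO DCs. It was 1.08 ± 0.0322 and 2.08 ± 0.102 in the confined groups, and 1.19 ± 0.144 and 1.17 ± 0.120 in the LPS libraries by label. The paralogs lie next to each other on chromosome 8 on the same strand, and reads shared between them were not told apart here.

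Because *Mt1* and *Mt2* rose together, their promoters are shown. RefSeq windows (GRCm38.p6, from 250 bases before to 50 after the start) matched 7 of the 10 genes by symbol, and were searched on both strands for the core of the metal response element, TGCACNC or TGCGCNC. The *Mt1* window (chr8:94178839-94179138, plus strand) held 3 matches and the *Mt2* window (chr8:94172368-94172667, plus strand) 4. Of all 32851 windows, 25.7% held at least 1 match, 1.97% at least 3 and 0.517% at least 4. *Slc30a1* had 2 matches, as had 1 of the 2 *Tfrc* windows, against 7.11% of windows with at least 2, while the windows of *Fth1*, *Ftl1* and *Slc11a1* held none. Capitals mark the matches, which on the minus strand read in reverse complement; a match describes letters and not binding.
*Mt1* promoter: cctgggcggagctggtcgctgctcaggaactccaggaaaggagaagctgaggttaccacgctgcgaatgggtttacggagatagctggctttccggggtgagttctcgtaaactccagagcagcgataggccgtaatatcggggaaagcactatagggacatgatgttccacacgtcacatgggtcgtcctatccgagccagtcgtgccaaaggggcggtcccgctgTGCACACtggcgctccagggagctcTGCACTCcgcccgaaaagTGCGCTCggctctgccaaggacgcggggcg
*Mt2* promoter: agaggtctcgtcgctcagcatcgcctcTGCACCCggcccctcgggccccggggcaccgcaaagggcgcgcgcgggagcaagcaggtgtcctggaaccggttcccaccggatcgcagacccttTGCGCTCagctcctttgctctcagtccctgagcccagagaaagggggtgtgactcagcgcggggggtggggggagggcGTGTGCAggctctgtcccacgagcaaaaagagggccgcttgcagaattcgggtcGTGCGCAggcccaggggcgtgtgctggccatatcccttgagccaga

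Ferritin, the iron store, made up more of the RNA after confinement and after LPS. *Fth1* (GSMG0027387, chr19:9957962-9962475, plus strand), the heavy chain that oxidizes iron, held 266291, 260354 and 267455 normalized counts in nonconfined cPLA_2_ WT libraries, 353848, 305535 and 339021 in nonconfined cPLA_2_ KO libraries, 912475, 880577 and 900559 in confined cPLA_2_ WT libraries and 731066, 718928 and 783284 in confined cPLA_2_ KO libraries. LPS libraries held 962479, 812824 and 899367 and 835798, 993955 and 956808 by label. cPLA_2_ KO libraries lay above cPLA_2_ WT libraries when nonconfined and below them when confined, without overlap in either, and LPS libraries overlapped the confined cPLA_2_ WT range. *Fth1* rose with confinement (log2 fold change 1.76, SE 0.07, adjusted p = 4.75e-15 in cPLA_2_ WT; log2 fold change 1.16, SE 0.07, adjusted p = 1.58e-11 in cPLA_2_ KO), and less in cPLA_2_ KO DCs (interaction -0.60, SE 0.10, adjusted p = 7.88e-05). LPS gave 1.61 (SE 0.05, adjusted p = 1.16e-17).

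*Ftl1* (GSMG0051024, chr7:45107369-45109310, minus strand), the light chain, held 139352, 129999.9 and 131858 normalized counts in nonconfined cPLA_2_ WT libraries, 200208, 170306 and 194450.4 in nonconfined cPLA_2_ KO libraries, 238448, 218519 and 223347 in confined cPLA_2_ WT libraries and 309087, 311349 and 294231 in confined cPLA_2_ KO libraries, and 260504, 195186 and 225067 and 198590.4, 261182 and 234409 in LPS libraries by label. cPLA_2_ KO libraries lay above cPLA_2_ WT libraries both nonconfined and confined. Its rise with confinement was 0.76 in cPLA_2_ WT (SE 0.09, adjusted p = 3.28e-07) and 0.70 in cPLA_2_ KO DCs (SE 0.09, adjusted p = 2.05e-06), with an interaction of -0.06 (adjusted p = 0.776). With LPS *Ftl1* rose by 0.52 (SE 0.06, adjusted p = 2.57e-07), but no longer passed with each library brought to the same total (0.03, adjusted p = 0.697).

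The chains together made up 1.18%, 1.15% and 1.17% of the reads in genes in nonconfined cPLA_2_ WT libraries and 1.57%, 1.38% and 1.53% in nonconfined cPLA_2_ KO libraries. They made up 2.83%, 2.80% and 2.82% in confined cPLA_2_ WT and 2.86%, 2.93% and 3.00% in confined cPLA_2_ KO libraries, and between 2.10% and 2.54% in the LPS libraries. The summed share was higher in every confined cPLA_2_ KO library than in any confined cPLA_2_ WT library, by a margin that was not tested. Summed as normalized counts instead, the chains were lower in each of these cPLA_2_ KO libraries than in any of their cPLA_2_ WT counterparts. The direction of this difference therefore depends on the scale. Totals of normalized counts averaged 35818965 for cPLA_2_ KO after confinement, against 39890269 for cPLA_2_ WT. *Fth1* over *Ftl1*, as normalized counts, averaged 3.96 ± 0.118 (SD over 3 libraries) when cPLA_2_ WT DCs were confined and 2.45 ± 0.190 when cPLA_2_ KO DCs were, 1.98 ± 0.0618 and 1.77 ± 0.0253 in the nonconfined groups, and 3.95 ± 0.238 and 4.03 ± 0.206 with LPS. Both genes have processed copies elsewhere in the genome, and reads that fit several places may be missing from these counts.

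*Slc40a1* (GSMG0001685, chr1:45947230-45965684, minus strand), the only iron exporter known in mammals, held 845, 971 and 987 normalized counts in nonconfined cPLA_2_ WT libraries, 1600.0, 1683 and 1573 in nonconfined cPLA_2_ KO libraries, 5841, 5656 and 5724 in confined cPLA_2_ WT libraries and 11266, 10580.2 and 10804 in confined cPLA_2_ KO libraries. The LPS libraries held 1772, 812 and 1331 under the cPLA_2_ WT label and 829.5, 1748 and 1503 under the cPLA_2_ KO label. cPLA_2_ KO libraries lay above cPLA_2_ WT libraries in both states, every confined library lay above every other library, and LPS libraries covered the range of both nonconfined groups. Confinement raised *Slc40a1* in cPLA_2_ WT (log2 fold change 2.62, SE 0.21, adjusted p = 8.36e-10) and also in cPLA_2_ KO DCs (log2 fold change 2.75, SE 0.21, adjusted p = 9.07e-10), with an interaction that did not pass (0.13, SE 0.30, adjusted p = 0.809).

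With LPS the change of *Slc40a1* was 0.05 (SE 0.15, adjusted p = 0.791). This value turned to -0.45 (adjusted p = 0.00946) with each library brought to the same total, and was 0.36 (adjusted p = 2.41e-05) without the 2 LPS libraries lacking *Ddx3y*. Against LPS, *Slc40a1* was higher after confinement, by 2.18 in cPLA_2_ WT (SE 0.18, adjusted p = 2.01e-09) and 3.10 in cPLA_2_ KO DCs (SE 0.18, adjusted p = 2.91e-12).

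*Tfrc* (GSMG0020792, chr16:32427714-32451612, plus strand), which brings in transferrin-bound iron, held 6523, 6837 and 7216 normalized counts in nonconfined cPLA_2_ WT libraries, 6541, 7358 and 6396 in nonconfined cPLA_2_ KO libraries, 2597, 2659 and 2471 in confined cPLA_2_ WT libraries and 3288, 3088 and 3164 in confined cPLA_2_ KO libraries. Under LPS it held 3134, 3312 and 3201 and 3335, 2905 and 3266 by label. Nonconfined libraries of both genotypes overlapped, confined cPLA_2_ WT libraries were the lowest, and LPS libraries overlapped the confined cPLA_2_ KO range. *Tfrc* fell by 1.41 (log2) in cPLA_2_ WT (SE 0.06, adjusted p = 1.34e-14) and fell by 1.09 in cPLA_2_ KO DCs (SE 0.06, adjusted p = 3.63e-12), a smaller fall in cPLA_2_ KO DCs (interaction 0.33, SE 0.08, adjusted p = 0.00606). With LPS it fell by 1.09 (SE 0.04, adjusted p = 7.19e-16).

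The UTRs of the canonical transcripts (GENCODE vM39, GRCm39) of the 10 genes were searched for the letters of an iron-responsive element: C, a stem of 5 bases, the loop CAGTGN, and 5 bases that pair with the stem, G with T included. A single match lay in the 5′ UTR of *Fth1* (chr19:9960102-9960118, plus strand), *Ftl1* (chr7:45109209-45109225, minus strand) and *Slc40a1* (chr1:45964631-45964647, minus strand), and 4 lay in the 3′ UTR of *Tfrc* (chr16:32450043-32450059, chr16:32450422-32450438, chr16:32450487-32450503 and chr16:32450534-32450550, plus strand). The other 6 genes had no match in these transcripts. The pattern allows no unpaired base within the stem, so an element of another form would be missed. The pattern was found in 24 of 20696 5′ UTRs (0.116%, median length 215 bases) and in 124 of 21536 3′ UTRs (0.576%, median length 1015 bases), and the 3′ UTR of *Tfrc* is 2461 bases long. The sites are shown because the genes that carry them moved in both directions with confinement; capitals mark the loop, and 5 bases are added on each side of the match.
*Fth1* 5′ UTR: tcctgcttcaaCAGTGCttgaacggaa
*Ftl1* 5′ UTR: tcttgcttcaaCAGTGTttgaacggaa
*Slc40a1* 5′ UTR: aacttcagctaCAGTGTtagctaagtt
*Tfrc* 3′ UTR, site 1: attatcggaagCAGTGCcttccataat
*Tfrc* 3′ UTR, site 2: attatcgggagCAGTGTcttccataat
*Tfrc* 3′ UTR, site 3: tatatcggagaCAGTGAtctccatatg
*Tfrc* 3′ UTR, site 4: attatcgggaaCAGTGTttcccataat

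*Fth1*, *Ftl1* and *Slc40a1*, with the match in the 5′ UTR, were higher after confinement in both genotypes, and *Tfrc*, with matches in the 3′ UTR, was lower. The genes without a match, *Slc11a2* among them, were also higher in both genotypes. Poly(A) RNA levels do not show translation, where the 5′ element is known to act. The genes of the binding proteins gave smaller changes: *Aco1* fell by 0.55 on the log2 scale in confined cPLA_2_ WT DCs (adjusted p = 7.91e-08), with -0.06 in cPLA_2_ KO DCs (adjusted p = 0.407) and an interaction of 0.48 (adjusted p = 0.000151). *Ireb2* rose by 0.25 in cPLA_2_ WT DCs (adjusted p = 7.63e-05), but no longer passed with each library brought to the same total (0.03, adjusted p = 0.692). *Fbxl5*, which targets the *Ireb2* product for degradation when iron is ample, rose by 0.92 in cPLA_2_ WT (adjusted p = 5.48e-09) and 0.99 in cPLA_2_ KO DCs (adjusted p = 4.02e-09).

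*Slc39a14* (GSMG0017450, chr14:70540916-70588876, minus strand), an importer of zinc, manganese and iron not bound to transferrin, held 959, 880.0 and 902 normalized counts in nonconfined cPLA_2_ WT libraries, 845, 919.7 and 964 in nonconfined cPLA_2_ KO libraries, 4989, 4827 and 4949 in confined cPLA_2_ WT libraries and 1747, 1612 and 1683 in confined cPLA_2_ KO libraries. By label, LPS libraries held 4425, 3668 and 4050.0 and 3486, 4442 and 4054. Nonconfined libraries overlapped, while confined cPLA_2_ WT libraries lay above all others and confined cPLA_2_ KO libraries lay between the nonconfined and the LPS libraries. It rose with confinement in cPLA_2_ WT (log2 fold change 2.43, SE 0.08, adjusted p = 9.65e-17) and also in cPLA_2_ KO DCs (log2 fold change 0.89, SE 0.08, adjusted p = 5.19e-09). Among the 10 genes its interaction was the furthest from 0 (-1.54, SE 0.11, adjusted p = 2.8e-10), and with LPS the change was 2.14 (SE 0.05, adjusted p = 4.61e-19).

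*Slc11a2* (GSMG0020335, chr15:100285783-100320936, minus strand), which moves iron out of the endosome, held 1041, 1016 and 1042 normalized counts in nonconfined cPLA_2_ WT libraries, 1129.8, 1063 and 1084 in nonconfined cPLA_2_ KO libraries, 3049.7, 3022 and 3032 in confined cPLA_2_ WT libraries and 1672, 1574 and 1779 in confined cPLA_2_ KO libraries, with 4329.6, 3616 and 3869.9 and 3554, 4318 and 3805 under LPS by label. Confined cPLA_2_ KO libraries were again between the nonconfined and the confined cPLA_2_ WT libraries, and the LPS libraries were above all others. The rise with confinement was 1.55 in cPLA_2_ WT (SE 0.07, adjusted p = 2.84e-14) and 0.61 in cPLA_2_ KO DCs (SE 0.07, adjusted p = 2.18e-07), with an interaction of -0.94 (SE 0.10, adjusted p = 1.35e-07). LPS raised it by 1.88 (SE 0.05, adjusted p = 5.82e-19).

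*Slc11a1* (GSMG0000430, chr1:74414360-74425211, plus strand), the transporter of the phagosome, followed another order. It held 799, 842 and 831 normalized counts in nonconfined cPLA_2_ WT libraries, 1403, 1409 and 1380.0 in nonconfined cPLA_2_ KO libraries, 2720.1, 2604 and 2800.2 in confined cPLA_2_ WT libraries and 4178, 4028 and 4228 in confined cPLA_2_ KO libraries. LPS libraries held 5465, 2349.6 and 3818 and 2314, 5176 and 4057 by label. cPLA_2_ KO libraries were above cPLA_2_ WT libraries in both states, and LPS libraries ran from below the confined cPLA_2_ WT range to above the confined cPLA_2_ KO range. Confinement gave 1.72 in cPLA_2_ WT (SE 0.22, adjusted p = 1.03e-06) and 1.57 in cPLA_2_ KO DCs (SE 0.22, adjusted p = 6.24e-06), with an interaction of -0.15 (adjusted p = 0.787). LPS gave 1.77 (SE 0.16, adjusted p = 1.54e-09).

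*Slc30a1* (GSMG0001366, chr1:191638893-191645359, plus strand), which carries zinc out of the cell, held 299.5, 314 and 283 normalized counts in nonconfined cPLA_2_ WT libraries, 348, 318 and 285 in nonconfined cPLA_2_ KO libraries, 767, 731 and 672 in confined cPLA_2_ WT libraries and 1117, 946 and 1034 in confined cPLA_2_ KO libraries, and 1153, 710.3 and 943 and 734, 1117 and 893 under LPS by label. As for *Mt1*, confined cPLA_2_ KO libraries lay above confined cPLA_2_ WT libraries and nonconfined libraries overlapped. It rose with confinement in both genotypes (log2 fold change 1.27, SE 0.14, adjusted p = 1.34e-07 in cPLA_2_ WT; log2 fold change 1.70, SE 0.14, adjusted p = 3.45e-09 in cPLA_2_ KO) and with LPS (log2 fold change 1.56, SE 0.10, adjusted p = 7.03e-12). The interaction was 0.43 (SE 0.20, adjusted p = 0.134), and passed with each library brought to the same total (0.62, adjusted p = 0.0164) and with the 4 groups fitted alone (adjusted p = 0.0152).

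**Figure D2:**
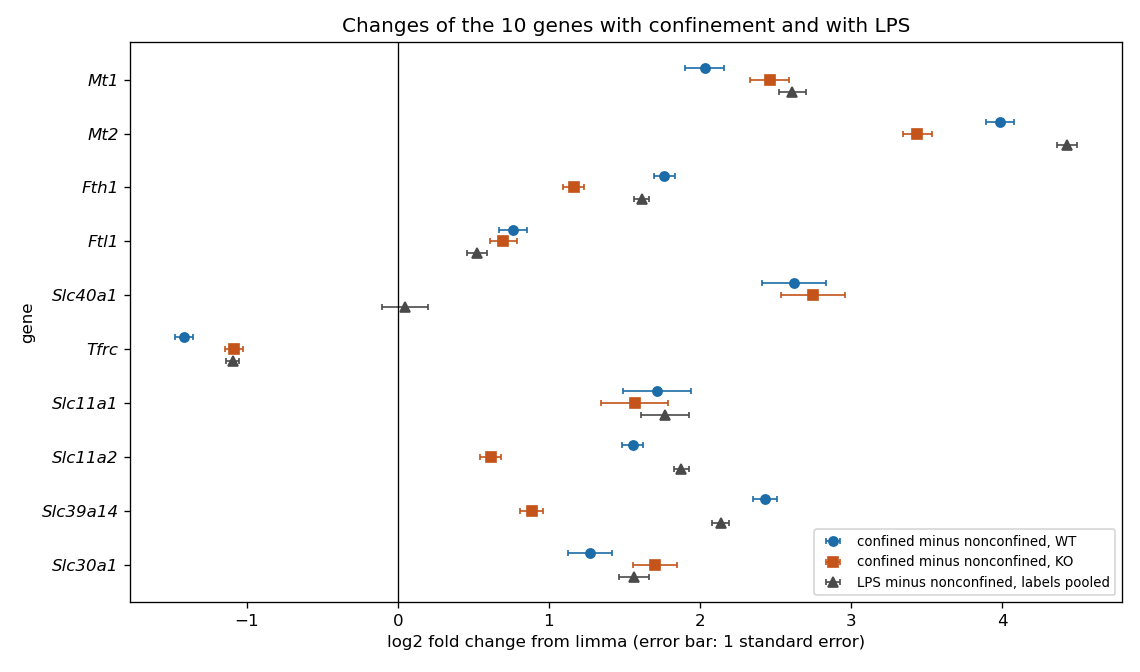
Log2 fold changes from limma of the 10 genes (error bars, 1 standard error) for confinement in cPLA_2_ WT DCs (circles), confinement in cPLA_2_ KO DCs (squares) and LPS with labels pooled (triangles), each against nonconfined DCs. *Slc40a1* shows 2.62 and 2.75 with confinement and 0.05 with LPS, and *Slc39a14* shows 2.43 for cPLA_2_ WT against 0.89 for cPLA_2_ KO DCs.

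The comparison of genotypes asked whether these genes depended on cPLA_2_. By the interaction, that is the confinement change in cPLA_2_ KO minus that in cPLA_2_ WT DCs, 4 of the 10 genes (*Mt2*, *Fth1*, *Slc11a2* and *Slc39a14*) passed with a smaller rise in cPLA_2_ KO DCs, against 15.6% of all genes that passed lower. *Tfrc* passed in the other direction, that of a smaller fall, against 10.2% of all genes. *Slc39a14* alone passed with a difference of at least 2-fold, against 6.56% of all genes. The median interaction of the 10 genes was -0.11 and that of all genes 0.05. In the same test 9 of the 12 DC markers passed as lower and 0 as higher (median -0.47), and 9 of the 12 neutrophil markers as higher and 0 as lower (median 0.625), against 15.6% of all genes lower and 10.2% higher. Their part in the interactions of the 10 genes was not tested. The DC list holds *Ccr7*, whose rise with confinement the study found to be lost in cPLA_2_ KO DCs. Here *Ccr7* averaged 15884 and 16451 normalized counts in nonconfined and 32945 and 8919 in confined cPLA_2_ WT and cPLA_2_ KO DCs.

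In nonconfined DCs 4 of the 10 genes passed as higher in cPLA_2_ KO DCs, against 4.78% of all genes, and none passed as lower by limma, edgeR or DESeq2, against 4.11% of all genes by limma. At an unadjusted p under 0.05 the count was 4 of 10 by each of these tools. Of all 17875 genes 4005 reached it by limma, 4051 by edgeR and 4109 by DESeq2. The 4 genes were *Slc40a1* (log2 fold change 0.80, SE 0.21, adjusted p = 0.023), *Slc11a1* (log2 fold change 0.76, SE 0.22, adjusted p = 0.0362), *Ftl1* (log2 fold change 0.49, SE 0.09, adjusted p = 0.00185) and *Fth1* (log2 fold change 0.33, SE 0.07, adjusted p = 0.00523), each higher in 3 of 3 cPLA_2_ KO libraries than in any cPLA_2_ WT library. The share of all genes split in this way was not counted. *Slc40a1* no longer passed without any 1 of 5 of the 6 libraries (adjusted p from 0.056 to 0.0918; the exception was cPLA_2_ KO replicate 2). *Slc11a1* no longer passed without any 1 of the 6 (adjusted p from 0.0643 to 0.112) or without the filter (0.0695).

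In confined DCs all 10 genes passed between genotypes, 6 higher in cPLA_2_ KO DCs against 18.8% of all genes and 4 lower against 20.6%. *Slc40a1* (0.92, SE 0.21, adjusted p = 0.00151), *Slc11a1* (0.61, adjusted p = 0.0336), *Mt1* (0.55, adjusted p = 0.00181), *Slc30a1* (0.51, adjusted p = 0.00709), *Ftl1* (0.43, adjusted p = 0.000742) and *Tfrc* (0.30, adjusted p = 0.000309) were higher. *Slc39a14* (-1.55, SE 0.08, adjusted p = 3.61e-13), *Slc11a2* (-0.86, adjusted p = 1.27e-09), *Mt2* (-0.40, adjusted p = 0.00191) and *Fth1* (-0.27, adjusted p = 0.0037) were lower, and only *Slc39a14* of these 4 by at least 2-fold, against 7.31% of all genes. For each of the 10 genes the 3 libraries of one genotype did not overlap the 3 of the other. How many of all genes were split in this way was not counted, and 39.4% of all genes passed in either direction. *Slc11a1* no longer passed without any 1 of the 6 libraries (adjusted p from 0.0622 to 0.0872), without the filter (0.0625) or by DESeq2 (0.0552), and *Fth1* no longer passed with each library brought to the same total (-0.12, adjusted p = 0.116).

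Markers of other cells moved with genotype and confinement. The 12 neutrophil markers, all detected and led by *S100a9*, summed to 256784, 261651 and 259864 normalized counts in nonconfined cPLA_2_ WT libraries, 392626, 356562 and 381074 in nonconfined cPLA_2_ KO libraries, 172152, 164409 and 162422 in confined cPLA_2_ WT libraries and 361084, 370468 and 356661 in confined cPLA_2_ KO libraries. The 9 eosinophil markers, all detected and led by *Prg2*, summed to 33938, 33823 and 33773, then 83493, 77522 and 79494, then 9940.4, 9439 and 9318, then 25194, 24839 and 25767 in the same order of groups. Both sums, in which the most abundant genes weigh most, were higher in every cPLA_2_ KO library than in any cPLA_2_ WT library of the same state, as were *Slc40a1*, *Slc11a1* and *Ftl1*. By gene, 9 of the 12 neutrophil markers passed as higher in nonconfined and 12 in confined cPLA_2_ KO DCs (4.78% and 18.8% of all genes) and 0 as lower (4.11% and 20.6%). Of the 9 eosinophil markers 7 passed as higher and 1 as lower when nonconfined, and 7 and 2 when confined, against the same shares of all genes, *Siglecf* averaging 1402 and 943 when nonconfined and *Ccr3* 189.7 and 61.3 when confined, in cPLA_2_ WT and cPLA_2_ KO DCs. Their part in the result was not tested, and fewer cells of a type and less RNA per cell cannot be told apart in bulk RNA. Macrophage markers, led by *Csf1r*, averaged 53473, 58064, 50170.1 and 52790.4 in these groups, with *Vsig4* at 0 in every library and *Timd4* and *Cd163*, receptors of resident macrophages, at or near 0. By gene, 5 of the 10 tested passed as higher and 0 as lower in nonconfined cPLA_2_ KO DCs (4.78% and 4.11% of all genes; median 0.413). In confined cPLA_2_ KO DCs 4 passed as higher and 1 as lower (18.8% and 20.6%; median 0.211). Red cell markers averaged between 97.5 and 258.6 in these groups, with *Alas2* and *Slc4a1* at 0 in every library. The 10 mast cell and basophil markers summed to 7804, 11396, 15901 and 7032 on average, and *Hdc* made up most of the sum in confined cPLA_2_ WT DCs (12369.5, from 735.5 when nonconfined). Of the 9 tested, 5 were called lower with confinement in cPLA_2_ WT DCs and 1 higher (7.62% and 11.4% of all genes; median -1.37), *Cpa3* averaging 3301 when nonconfined and 1275 when confined. Between genotypes 5 of the 9 passed as higher and 0 as lower in nonconfined cPLA_2_ KO DCs (4.78% and 4.11% of all genes; median 0.535). In confined cPLA_2_ KO DCs 5 passed as higher and 1 as lower (18.8% and 20.6%; median 0.572), although the sum was lower there.

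Within LPS, several of the 10 genes and the markers of several cell types moved together across libraries. *Slc40a1* stood at 812 and 829.5 normalized counts in the 2 LPS libraries lacking *Ddx3y* (labelled cPLA_2_ WT replicate 2 and cPLA_2_ KO replicate 1) and at 1772 and 1748 in the 2 with the most *Ddx3y* (labelled cPLA_2_ WT replicate 1 and cPLA_2_ KO replicate 2), with the remaining pair between at 1331 and 1503. *Slc11a1* gave 2349.6 and 2314.5, then 5465 and 5176, then 3818 and 4057 in the same order. Eosinophil markers summed to 27896 and 27890.5, then 48039 and 48274, then 38562 and 39142. DC markers summed to 742683 and 743023, then 853286 and 835628.5, then 781939 and 801406, and macrophage and neutrophil sums kept this order too. Mast cell and basophil markers ran the other way (19237 and 19375, then 16506 and 16392, then 17261 and 18028), and red cell sums overlapped between pairs. The highest of the 6 LPS libraries exceeded the lowest 2.36-fold for *Slc11a1*, 2.18-fold for *Slc40a1*, 1.62-fold for *Slc30a1* and 1.60-fold for *Mt1*. Within the 3 pairs just given, the library labelled cPLA_2_ WT over that labelled cPLA_2_ KO gave ratios between 0.886 and 1.06 for these 4 genes. *Xist* was less alike within the pair with the most *Ddx3y*, at 26298 and 16450.2. The 3 pairs thus stood in the same order for *Slc40a1*, *Slc11a1*, *Ddx3y* and the eosinophil, DC, macrophage and neutrophil sums. The parts of donor, genotype and cell mix in this order cannot be told apart.

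Between LPS libraries labelled cPLA_2_ KO and cPLA_2_ WT, the log2 differences of the 10 genes lay between -0.03 and 0.09. None of the 10 passed by limma, edgeR or DESeq2, adjusted or at an unadjusted p under 0.05, and 0% of all genes passed by limma (890 genes at an unadjusted p under 0.05, with 812 by edgeR and 831 by DESeq2, and none passing by either). Since the labels go against the data, this is no measure of what cPLA_2_ does under LPS.

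Confined cPLA_2_ WT DCs were next compared with LPS. Of the 10 genes 1, *Slc40a1*, was called higher with confinement by at least 2-fold, against 6.97% of all genes. By adjusted p alone 2 were higher (24.5% of all genes) and 5 lower (29.8%), with a median of -0.32 against -0.01. The other gene that was higher was *Slc39a14* (log2 fold change 0.30, SE 0.07, adjusted p = 0.000719). *Mt1* (-0.64, adjusted p = 5.44e-05), *Mt2* (-0.52, adjusted p = 1.58e-05), *Slc11a2* (-0.36, adjusted p = 2.32e-05), *Slc30a1* (-0.33, adjusted p = 0.0293) and *Tfrc* (-0.31, adjusted p = 3.06e-05) were lower. *Slc30a1* no longer passed by edgeR (-0.28, adjusted p = 0.0621), with scaling by trimmed means (-0.26, 0.0856), with the groups compared alone (0.0749), without confined cPLA_2_ WT replicate 2 (0.065) or 3 (0.125), and without LPS cPLA_2_ WT replicate 1 (0.0696) or cPLA_2_ KO replicate 2 (0.0694). *Slc11a1* did not pass (-0.43, adjusted p = 0.0648) but passed without LPS cPLA_2_ WT replicate 2 (-0.59, 0.00283), without LPS cPLA_2_ KO replicate 1 (-0.60, 0.00223), without both (-0.76, 1.02e-07) and with the LPS libraries averaged in 3 pairs (adjusted p = 0.034).

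Confined cPLA_2_ KO DCs had 1 gene called higher than LPS by at least 2-fold, *Slc40a1*, against 10.7% of all genes, and 2 called lower, *Slc39a14* (log2 fold change -1.25, SE 0.07, adjusted p = 4.02e-13) and *Slc11a2* (log2 fold change -1.22, SE 0.06, adjusted p = 8.09e-14), against 12.9%. By adjusted p alone 2 were higher (30.3% of all genes), the other being *Ftl1* (0.42, adjusted p = 8.89e-05), and 4 lower (32.5%), the others being *Mt2* (-0.91, adjusted p = 2.63e-09) and *Fth1* (-0.29, adjusted p = 0.000303). *Mt1* was at -0.09 (adjusted p = 0.498), and passed as lower without the 2 LPS libraries lacking *Ddx3y* (-0.26, 0.00158). *Slc30a1* stood at 0.18 (adjusted p = 0.217), and passed without LPS cPLA_2_ WT replicate 1 (0.26, 0.0498) and with each library brought to the same total (0.62, 8.83e-05).

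Comparisons with LPS depend on how libraries are scaled, because the LPS libraries hold more counts on the normalized scale (mean total 48718670 and 48721816 by label) than the confined (39890269 in cPLA_2_ WT and 35818965 in cPLA_2_ KO) and nonconfined libraries (34125100 and 34932739). With each library brought to the same total, the median of all genes became -0.46 for LPS against nonconfined, 0.27 for confined cPLA_2_ WT and 0.46 for confined cPLA_2_ KO against LPS, -0.23 for confinement in cPLA_2_ WT DCs, 0.24 for the interaction and 0.19 between confined genotypes. On that scale the calls of *Slc39a14* and *Slc11a2* as at least 2-fold lower in confined cPLA_2_ KO DCs than with LPS were lost. Both genes still passed as lower by adjusted p alone, at -0.81 and -0.78. *Fth1* was higher in confined DCs than with LPS on that scale (0.27 in cPLA_2_ WT, adjusted p = 0.000114; 0.16 in cPLA_2_ KO, adjusted p = 0.00981), as was *Ftl1* in cPLA_2_ WT DCs (0.28, adjusted p = 0.00187), and *Tfrc*, *Slc11a2* and *Slc30a1* no longer passed against LPS in cPLA_2_ WT DCs (adjusted p = 0.774, 0.231 and 0.768). In confined cPLA_2_ KO DCs *Mt1* (0.35, adjusted p = 0.00556), *Tfrc* (0.44, adjusted p = 5.79e-07), *Slc11a1* (0.625, adjusted p = 0.006) and *Slc30a1* (0.62, adjusted p = 8.83e-05) also became higher than with LPS. *Slc40a1* kept its direction against LPS in both genotypes under every scaling tried.

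Other genes of iron and metal handling were read from 12 lists. Of 132 listed genes 131 were in the table and 113 were tested. With confinement in cPLA_2_ WT DCs 16 of these were called higher and 8 lower (11.4% and 7.62% of all genes), with a median of 0.01, and in cPLA_2_ KO DCs 12 and 3 (6.43% and 5.53% of all genes), with a median of -0.01. LPS gave 26 and 10 (15.6% and 13.4% of all genes), with a median of 0.03. The interaction was at least 2-fold lower for 10 of the 113 genes, against 6.56% of all genes, with a median of 0.07.

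Of 12 genes of haem breakdown and transport 3 were called higher with confinement in cPLA_2_ WT DCs and 6 in cPLA_2_ KO DCs, against 11.4% and 6.43% of all genes. *Hmox1*, which opens haem and frees its iron, held 3358, 3129 and 3167 normalized counts in nonconfined cPLA_2_ WT libraries, 4104, 3808 and 3929.5 in nonconfined cPLA_2_ KO libraries, 67403, 62709 and 64329 in confined cPLA_2_ WT libraries, 103018, 95058 and 100386 in confined cPLA_2_ KO libraries, and 61956, 39652 and 52169 and 41388, 63239.9 and 53744 under LPS by label. Confined cPLA_2_ KO libraries were the highest, and LPS libraries ran from below the confined cPLA_2_ WT range into it. It rose in cPLA_2_ WT (log2 fold change 4.33, SE 0.12, adjusted p = 1.4e-17) and also in cPLA_2_ KO DCs (log2 fold change 4.66, SE 0.12, adjusted p = 3.3e-17), with an interaction of 0.32 (adjusted p = 0.188). *Por*, its electron donor, rose by 0.83 and 1.23 (adjusted p = 4.92e-08 and 2.42e-10), more in cPLA_2_ KO DCs (interaction 0.40, adjusted p = 0.0211), and was higher in confined cPLA_2_ KO DCs than with LPS (1.31, adjusted p = 1.75e-12). *Hp*, the haptoglobin gene of the same list, was lower in confined cPLA_2_ WT DCs than with LPS (-2.11, adjusted p = 3.36e-19).

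Hepcidin, encoded by *Hamp*, is the ligand that removes ferroportin from the cell surface. *Hamp* held 3.05, 0 and 1.97 normalized counts in nonconfined cPLA_2_ WT and 2.35, 0 and 1.94 in nonconfined cPLA_2_ KO libraries, 582, 686 and 729.7 in confined cPLA_2_ WT libraries and 8.63, 7.46 and 20.1 in confined cPLA_2_ KO libraries. LPS libraries held 84.0, 135 and 129 and 149.6, 118 and 119.7 by label. Every confined cPLA_2_ WT library lay above every LPS library, and every LPS library above every confined cPLA_2_ KO library. *Hamp* was lower in confined cPLA_2_ KO than in confined cPLA_2_ WT DCs (log2 fold change -5.79, SE 0.48, adjusted p = 2.77e-09) and higher in confined cPLA_2_ WT DCs than with LPS (log2 fold change 2.45, SE 0.42, adjusted p = 4.18e-05). Reads shared with the paralog *Hamp2*, at no more than 7.72 normalized counts in any library, were not told apart. Of 10 genes of iron export and iron hormones 3 were tested (*Hamp*, *Cp* and *Bmp2*), all 3 called higher with confinement in cPLA_2_ WT DCs (11.4% of all genes), and all 3 with an interaction at least 2-fold lower (6.56% of all genes). *Cp*, the ferroxidase ceruloplasmin, stood at no more than 31.7 normalized counts in any confined library and at no less than 183.8 in any LPS library.

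Among 7 iron-binding and related defence genes, 2 were called higher and 1 lower with confinement in cPLA_2_ WT DCs, against 11.4% and 7.62% of all genes. *Nos2*, the inducible nitric oxide synthase, held 24.4, 14.5 and 19.6 normalized counts in nonconfined cPLA_2_ WT libraries, 21.9, 11.2 and 22.3 in nonconfined cPLA_2_ KO libraries, 14692, 13855 and 14383 in confined cPLA_2_ WT libraries and 77.7, 78.9 and 72.0 in confined cPLA_2_ KO libraries, and 26511, 42582 and 33828 and 42370.3, 24107 and 32279 under LPS by label, the highest of all. It rose in cPLA_2_ WT (log2 fold change 9.48, SE 0.22, adjusted p = 5.51e-19) and also in cPLA_2_ KO DCs (log2 fold change 2.05, SE 0.22, adjusted p = 1.42e-07). *Acod1*, which makes itaconate, held 65492, 62048 and 62621 in confined cPLA_2_ WT libraries, 9227, 8540.3 and 9222 in confined cPLA_2_ KO and no more than 3264 in nonconfined libraries, while every LPS library held 198646 or more. *Acod1* rose by 4.32 in cPLA_2_ WT (adjusted p = 4.77e-23) and 1.53 in cPLA_2_ KO DCs (adjusted p = 1.09e-14). *Ltf* (1.44), *S100a8* (1.19) and *S100a9* (1.14) were higher in confined cPLA_2_ KO than in confined cPLA_2_ WT DCs (adjusted p = 1.02e-09, 1.73e-14 and 9.67e-14), and all 3 are also in the neutrophil list. *Cybb* was lower in confined cPLA_2_ WT DCs than with LPS (-1.51, adjusted p = 6.55e-14).

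Uptake and sensing genes came next. Of 8 uptake genes tested, 1 was called higher and 2 lower with confinement in cPLA_2_ WT DCs, against the same shares of all genes. *Slc39a8*, a relative of *Slc39a14*, was 1 of the 2, falling from 89.9, 118 and 96.3 to 30.0, 49.7 and 55.7 normalized counts (log2 fold change -1.19, SE 0.24, adjusted p = 0.000259), and gave -0.55 in cPLA_2_ KO DCs (adjusted p = 0.071, interaction 0.64, adjusted p = 0.19). *Steap3*, a reductase of the endosome, held 217, 198 and 199.5 in nonconfined cPLA_2_ WT and no more than 42.0 in any LPS library, and it fell by 2.38 on the log2 scale with LPS (SE 0.12, adjusted p = 5.57e-14). Of 10 sensing genes 7 passed the adjusted p alone as higher in confined cPLA_2_ WT DCs and 2 as lower, against 28.2% and 28.4% of all genes. *Zfp36l2*, an mRNA decay factor, fell by 0.92 in cPLA_2_ WT DCs (adjusted p = 5.57e-11) and fell by 2.22 with LPS (adjusted p = 7.41e-21). *Ncoa4*, which delivers ferritin to autophagy, fell by 0.33 with confinement in cPLA_2_ WT DCs (adjusted p = 1.08e-05) and rose by 0.53 with LPS (adjusted p = 1.97e-11), the rise being lost with each library brought to the same total (0.03, adjusted p = 0.342).

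For haem synthesis 1 of 13 genes tested was called higher and 1 lower with confinement in cPLA_2_ WT DCs, and for mitochondrial iron and iron-sulfur clusters 2 and 2 of 25, against 11.4% and 7.62% of all genes. By adjusted p alone, of 13 haem synthesis genes tested 3 passed higher and 9 lower with confinement in cPLA_2_ WT DCs (median -0.38, against -0.01 for all genes), against 28.2% and 28.4% of all genes, and 2 and 9 with LPS (median -0.53), against 37.2% and 34.3%. Of the 25 mitochondrial genes 9 passed higher and 12 lower in confined cPLA_2_ WT DCs (median -0.07), against 28.2% and 28.4% of all genes. *Fdxr* fell by 1.09 on the log2 scale (SE 0.14, adjusted p = 8.39e-07).

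For zinc and copper, 3 of 7 other zinc exporters tested passed higher and 2 lower with confinement in cPLA_2_ WT DCs (median -0.01), 3 and 6 of 11 other SLC39 importers (median -0.23), and 5 and 2 of 10 copper genes (median 0.25), by adjusted p alone and against the same 28.2% and 28.4% of all genes. *Slc39a10* fell by 1.21 in cPLA_2_ WT DCs (SE 0.13, adjusted p = 3.76e-08). *Slc39a2* was higher in nonconfined cPLA_2_ KO than in nonconfined cPLA_2_ WT DCs (log2 fold change 1.03, SE 0.14, adjusted p = 7.72e-05), and in each of 3 libraries. *Mtf1*, the zinc sensor, rose by 0.19 in cPLA_2_ WT DCs (SE 0.06, adjusted p = 0.00769), a value that turned to -0.04 with each library brought to the same total (adjusted p = 0.583) and no longer passed without confined cPLA_2_ WT replicate 3 (0.15, adjusted p = 0.0523). With LPS *Mtf1* rose by 0.69 (adjusted p = 1.13e-12). All 3 genes tested of the list of the other metallothioneins and *Mtf1*, which also holds *Mtf2*, passed higher in confined cPLA_2_ WT DCs, and of 5 storage genes 1 passed higher and 2 lower, against those shares.

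The genes whose levels were most like those of 4 of the 10 were sought among 10544 genes by Pearson's r over the 18 libraries. Since these fall into 6 groups, r describes mostly the group levels. *Mt2* was closest to *Alas1*, which starts haem synthesis (r = 0.998), *Txnrd1*, a thioredoxin reductase (0.998), and *Tma16* (0.998). *Fth1* was closest to *Ninj1* (0.995), *Plaur* (0.994) and *Lilr4b* (0.992). For *Tfrc* the closest were *Sh3bp1* (0.985), *Fasn*, the fatty acid synthase (0.981), and *Ccnd3* (0.979). For *Slc40a1* they were *Stxbp5* (0.986), *Por* (0.984) and *Slc35e4* (0.982). *Alas1* averaged 7376, 7373, 21584, 18227, 24682 and 24304 normalized counts from nonconfined to LPS in the order of groups used above, and *Por* 5645, 6633, 10031.5, 15541, 6192.5 and 6418.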

How the data were processed

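Values were taken from the table deposited by the authors, who mapped reads with STAR 2.7.5a to mm39 (GRCm39), counted them on Mouse FAST DB genes and divided them by a DESeq2 size factor per library (featureCounts 1.5.0 and R 3.5.3 in the submitters' notes), so that the deposited signal is a normalized count that is not per length. Whole reads were recovered by dividing each column by its step: 100% of values came out whole within 1e-04. Libraries held 33027230 to 61300021 recovered reads, by group 34689393 to 45020354 and 36034820 to 45021696 (nonconfined cPLA_2_ WT and cPLA_2_ KO), 33592725 to 45769637 and 33027230 to 39400286 (confined), and 52116837 to 61300021 and 39609637 to 45160523 (LPS, by label). With 3 libraries a group, their spread sets the precision.

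The 17875 genes that reached a normalized count of 10 in 3 or more libraries were fitted on the log2 scale with a pseudocount of 1 by limma 3.58.1 (R 4.3.3; a mean per group, moderated variances with a trend), and p-values were adjusted over all of them by Benjamini-Hochberg. A gene passed at an adjusted p under 0.05 and was called at least 2-fold where the absolute log2 fold change also exceeded 1. Alternatives were other pseudocounts and filters, the same total per library, trimmed-mean scaling, edgeR 4.0.16 and DESeq2 1.42.0 on recovered reads, replicate numbers as blocks, the compared groups alone, each library left out in turn and, chosen after seeing the data, LPS libraries averaged in pairs or without the 2 lacking *Ddx3y*. The genes, lists and tests were chosen with earlier results of these data known. From the lists, up to 3 genes with the largest rise and 3 with the largest fall in a comparison (called at least 2-fold, averaging 100 or more normalized counts) were named, besides 7 chosen by symbol; *Cp*, *Bmp2*, *Hamp2* and the split of LPS libraries by *Ddx3y* were picked with their values in view. Of the genes this rule gave, 1 is not reported here. The protocol text gives LPS for all samples, and titles and treatment fields were followed. Tables and plots were made with pandas 2.3.3 and matplotlib 3.10.9.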

Additional observations from a re-analysis of the deposited data

Results flagged for a closer look

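Of the 10 iron and metallothionein genes, 5 differed between genotypes in their change with confinement by a test of the difference itself (limma, confinement change in cPLA_2_ KO minus that in cPLA_2_ WT DCs, log2 scale), against 25.8% of all genes that passed in either direction. These were *Slc39a14* (-1.54, SE 0.11, adjusted p = 2.8e-10), *Slc11a2* (-0.94, SE 0.10, adjusted p = 1.35e-07), *Fth1* (-0.60, SE 0.10, adjusted p = 7.88e-05), *Mt2* (-0.55, SE 0.13, adjusted p = 0.0038) and *Tfrc* (0.33, SE 0.08, adjusted p = 0.00606), the last being a smaller fall in cPLA_2_ KO DCs. For each of the 5, the 3 confined libraries of one genotype did not overlap those of the other, and the share of all genes without such overlap was not counted.

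From the lists, *Nos2* differed by -7.43 (SE 0.31, adjusted p = 4.33e-14), *Hamp* by -5.70 (SE 0.69, adjusted p = 1.3e-06) and *Acod1* by -2.79 (SE 0.08, adjusted p = 9.98e-17). These 3 were picked for the size of this same difference, so that they pass is no further evidence. The value of *Hamp* depends on the pseudocount, since its nonconfined libraries held at most 3.05 normalized counts. Other genes named in the report, among them *Aco1*, *Por*, *Cp* and *Bmp2*, also passed this test. So did 9 of 12 DC markers, lower, and 9 of 12 neutrophil markers, higher, and their part in these differences was not tested. The list of DC markers includes *Ccr7*, the gene that the study followed. Genotype and the presence of male cells cannot be told apart in any of these values.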

How the results depend on the processing

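Of 1520 values of the 10 genes under alternatives, 1435 kept direction and side of the threshold, 33 lost and 13 gained significance, and 39 turned sign. With a filter of 100 normalized counts fewer genes were tested, and the calls of at least 2-fold over all genes became 1999 (from 3400) for confinement in cPLA_2_ WT, 1087 (2139) in cPLA_2_ KO, 96 (206) and 1061 (1805) between nonconfined and confined genotypes, 3148 (5188) for LPS, 1364 (2647) and 2416 (4227) for confined cPLA_2_ WT and cPLA_2_ KO DCs against LPS. Without a filter 1 gene was called between LPS labels.

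With the same total per library, 1 of the 10 genes was called higher in confined cPLA_2_ KO than cPLA_2_ WT DCs and 0 were called lower in confined cPLA_2_ KO DCs than with LPS, in place of 0 and 2. Signs turned there for *Mtf1* with confinement in cPLA_2_ WT DCs (-0.037), the interactions of *Ftl1* (0.13) and *Slc11a1* (0.041), *Slc40a1* (-0.45) and *Ireb2* (-0.07) with LPS, *Fth1* (0.27) and *Ftl1* (0.28) in confined cPLA_2_ WT DCs against LPS, and *Mt1* (0.35), *Fth1* (0.16) and *Tfrc* (0.44) in confined cPLA_2_ KO DCs against LPS. The share of called genes that were higher moved from 59.9% to 43.0% (confinement, cPLA_2_ WT), 14.4% to 33.6% (interaction), 27.6% to 41.2% (confined genotypes), 53.8% to 28.3% (LPS), and 47.0% to 68.9% and 45.3% to 71.8% (confined cPLA_2_ WT and cPLA_2_ KO against LPS). The groups' totals of normalized counts differ, and equal totals move every gene of a library alike.

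Values near 0 also turned sign elsewhere. By trimmed means *Slc40a1* with LPS was -0.001, *Fth1* and *Ftl1* in confined cPLA_2_ WT DCs against LPS 0.056 and 0.066, and *Tfrc* in confined cPLA_2_ KO DCs against LPS 0.038. The last 3 were 0.053, 0.057 and 0.037 by edgeR and 0.019, 0.023 and 0.019 by DESeq2. Without the 2 LPS libraries lacking *Ddx3y*, *Tfrc* (0.025) and *Slc11a1* (-0.14) turned in confined cPLA_2_ KO DCs against LPS. The cause was not tested.

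Leaving out each library in turn gave 125 to 238 genes called between nonconfined genotypes and 0 to 1 between LPS labels. Values ran from -0.083 to 0.018 (*Tfrc*) and -0.05 to 0.044 (*Slc39a14*) between nonconfined genotypes, -0.081 to 0.21 for *Slc40a1* with LPS, -0.053 to 0.013 (*Fth1*) and -0.059 to 0.046 (*Ftl1*) for confined cPLA_2_ WT DCs against LPS, and -0.035 to 0.017 for *Tfrc* in confined cPLA_2_ KO DCs against LPS.

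Libraries of the same number did not deviate together in all pairs of groups: between confined genotypes r was 0.338, 0.208 and 0.0402 by number, with confined cPLA_2_ WT replicate 3 closest to another number, and between nonconfined genotypes 0.0112, 0.0412 and 0.00406. With replicate numbers as blocks, calls over all genes were 3392 (cPLA_2_ WT) and 2128 (cPLA_2_ KO) for confinement, 1340 for the interaction (1371 without), 186 and 1790 between genotypes, 5195 for LPS, and 2643 and 4223 against LPS. The counts of the 10 genes called at least 2-fold were the same as without blocks, while by adjusted p alone *Slc11a1* no longer passed between nonconfined genotypes (0.0578).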

Other observations

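Some genes of metal handling outside the rule for naming genes, chosen after their values were seen, are given here. *Steap4*, a ferric reductase of the cell surface, held 333, 416 and 364 normalized counts in confined cPLA_2_ WT libraries, at most 1.82 in confined cPLA_2_ KO libraries, at most 2.35 in nonconfined libraries and between 19.6 and 46.9 with LPS. *Spic*, known from red pulp macrophages that recycle iron, averaged 29.4 and 50.5 normalized counts in nonconfined cPLA_2_ WT and cPLA_2_ KO DCs, 433.9 and 487 in confined DCs, and 719.8 and 752 in LPS libraries by label, while *Vsig4* was at 0 in every library.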
